A study of Mus musculus with 18 samples.

Results

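The S100 calcium-binding genes S100a3, S100a4, S100a6, S100a7a, S100a8, S100a9, S100a10, S100a11, S100a14 and S100a16 were followed in the back skin of 18 mice. They were taken by gene symbol, 10 of 55357 genes in the table of normalized counts. All 10 were also among the 17667 genes tested, those with 10 or more normalized counts in 6 or more libraries. Back skin RNA was sequenced in bulk from 6 wild-type (WT) mice, from 6 N-IKKa mice, whose keratinocytes carry an added IKKα directed to the nucleus, and from 6 C-IKKa mice, whose keratinocytes carry it in the cytoplasm. All 18 mice were of the FVB strain and 6 months old, and each was its own library. The promoter that drives the transgene and the number of founder lines are not given in the sources used here.

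S100 proteins are small dimers with EF-hand loops, and calcium binding opens a cleft through which they hold partner proteins. The alarmins S100a8 and S100a9 pair as calprotectin, which is abundant in neutrophils, is induced in stressed keratinocytes, binds zinc and manganese, and acts on the receptors Tlr4 and Ager once released. S100a7a is the mouse relative of human psoriasin, S100a3 is known in human hair as a cuticle protein that peptidylarginine deiminases modify, and S100a10, S100a11, S100a14 and S100a16 are proteins of epithelial cells, among others.

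The promoters of 4 genes are shown because S100a8 and S100a9 were high together in a single library, while S100a7a and S100a3 were high together in the libraries with growing hair. They are the 250 bases before the listed start, from RefSeq on build GRCm38.p6, at chr3:90668821-90669070 (plus strand) for S100a8, chr3:90695722-90695971 (minus strand) for S100a9, chr3:90654052-90654301 (plus strand) for S100a7a and chr3:90599964-90600213 (plus strand) for S100a3. Capitals mark matches to the motifs searched on both strands. The C/EBP motif was searched as TTNNGNAA. The TATA box was searched as TATAAA, the motif of Tcf and Lef factors as CTTTGA, the AP-1 motif with the letters TGANTCA, and the NF-kB motif by name.
S100a8: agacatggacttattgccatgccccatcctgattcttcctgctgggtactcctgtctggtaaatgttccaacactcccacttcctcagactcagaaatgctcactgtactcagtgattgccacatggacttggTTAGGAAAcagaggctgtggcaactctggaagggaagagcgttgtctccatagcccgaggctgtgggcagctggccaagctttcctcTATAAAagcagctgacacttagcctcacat
S100a9: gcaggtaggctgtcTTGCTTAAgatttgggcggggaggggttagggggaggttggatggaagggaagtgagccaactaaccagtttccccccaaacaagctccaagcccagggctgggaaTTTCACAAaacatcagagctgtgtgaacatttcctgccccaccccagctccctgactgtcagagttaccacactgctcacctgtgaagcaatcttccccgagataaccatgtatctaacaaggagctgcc
S100a7a: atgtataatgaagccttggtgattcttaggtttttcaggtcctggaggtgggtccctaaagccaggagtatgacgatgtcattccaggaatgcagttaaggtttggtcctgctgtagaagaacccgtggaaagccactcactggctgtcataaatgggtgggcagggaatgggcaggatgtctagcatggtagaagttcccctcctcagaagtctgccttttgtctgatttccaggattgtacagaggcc
S100a3: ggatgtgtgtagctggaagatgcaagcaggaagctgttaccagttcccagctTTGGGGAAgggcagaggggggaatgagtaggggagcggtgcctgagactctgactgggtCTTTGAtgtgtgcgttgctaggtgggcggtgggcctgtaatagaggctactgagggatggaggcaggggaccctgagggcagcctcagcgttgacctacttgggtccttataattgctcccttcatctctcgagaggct

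S100a8 held 1 C/EBP match at -117, counted from the listed start, and a TATA match at -30. S100a9 held 2 C/EBP matches, S100a3 held 1 at -198 and a Tcf/Lef match at -139, and S100a7a held no match to any of the 5 motifs. A promoter was listed for 8 of the 10 genes; S100a10 and S100a14 had no entry. Over these 8, C/EBP letters were found in 3, against 36.9% of 27025 listed promoters, TATA letters in 2 (S100a8 and S100a4) against 13.0%, Tcf/Lef letters in 2 (S100a3 and S100a11) against 14.0%, AP-1 letters in 2 (S100a11 and S100a16) against 6.87%, and NF-kB letters in 0 against 7.01%. These are matches of letters, not measured binding.

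Libraries held 11.1 to 15.7 M counted reads, and 1 read was worth 0.816 to 1.20 normalized counts. Chuk, the gene of IKKα, ranged from 851 to 1267 normalized counts in WT, from 804 to 1050 in N-IKKa and from 853 to 934 in C-IKKa, and was not called by limma in N-IKKa (adjusted p = 0.969) or in C-IKKa (adjusted p = 0.948) against WT. In 6 libraries the mean log2 level of a list of hair shaft keratins and associated genes lay between 10.1 and 12.4, and in the other 12 between 2.16 and 5.27. These are named growing-hair libraries (WT 1 and 4, N-IKKa 8, 9 and 11, C-IKKa 14) and resting-hair libraries; S100a3 is not in that list. All 6 growing-hair libraries were among the 10 read as female from Ddx3y, so hair state and sex are partly confounded. Keratinocyte markers were high in every library, with summed levels of 50150 to 93293 normalized counts for 7 basal genes and 42340 to 119610 for the differentiated ones.

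S100a8 and S100a9 were low in the skin of all mice but WT 1, and neither differed between genotypes beyond the spread of the libraries. S100a9 held 1072 normalized counts in WT 1, 36.3 in WT 2, 17.9 in WT 3, 21.7 in WT 4, 28.0 in WT 5 and 18.0 in WT 6. In N-IKKa it ran from 8.31 to 29.2 with a median of 22.9, and in C-IKKa from 12.4 to 55.1 with a median of 21.0. The other 17 libraries therefore lay between 8.31 and 55.1, and WT 1 was 19.5-fold above the highest of them, C-IKKa 15. S100a8 held 336 normalized counts in WT 1, 38.3 in WT 2, 3.57 in WT 3, 50.2 in WT 4, 25.7 in WT 5 and 10.8 in WT 6. It ran from 7.38 to 33.5 in N-IKKa (median 24.3) and from 21.6 to 27.8 in C-IKKa (median 23.4). Its groups overlapped fully, and WT 1 was 6.68-fold above the next library, WT 4.

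By limma on log2(normalized count + 1), S100a9 gave a log2 fold change of -1.31 (SE 0.79, 95% limits -2.96 to 0.34, adjusted p = 0.880) in N-IKKa against WT and of -1.0 (SE 0.79, 95% limits -2.65 to 0.65, adjusted p = 0.985) in C-IKKa against WT. Both comparisons share the WT libraries, so WT 1 enters both. Without WT 1 the values were -0.40 (95% limits -1.31 to 0.50) and -0.09 (-1.0 to 0.81). For S100a8 they were -0.53 (SE 0.70, 95% limits -1.99 to 0.94, adjusted p = 0.892) and -0.33 (SE 0.70, 95% limits -1.80 to 1.14, adjusted p = 0.989) with all libraries, and turned to 0.16 and 0.35 without WT 1. N-IKKa against C-IKKa gave -0.31 for S100a9 (95% limits -1.96 to 1.34) and -0.20 for S100a8 (-1.66 to 1.27). WT 1 enters these limits through the spread shared by all groups, and without it they narrowed to -1.17 to 0.55 and to -1.23 to 0.84. On recovered reads edgeR gave S100a9 a log2 fold change of -3.35 in N-IKKa against WT (unadjusted p = 0.00381, adjusted p = 0.871), and DESeq2 returned no p for S100a9 in any comparison.

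**Figure D1:**
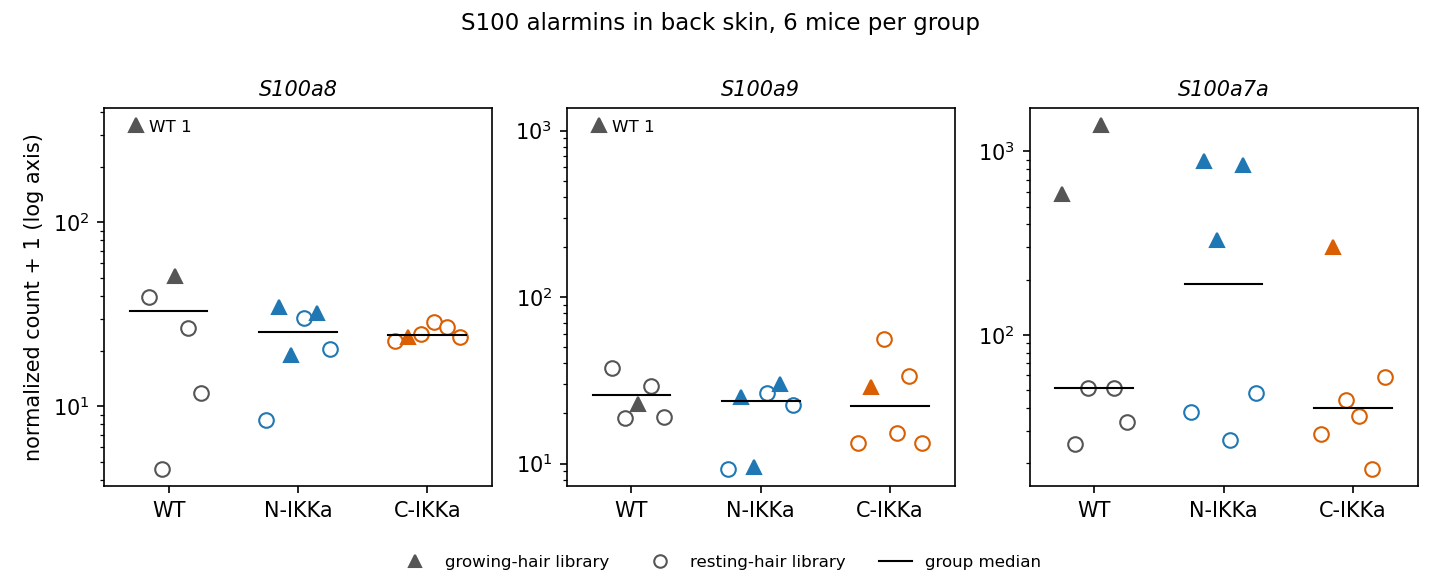
Normalized count + 1 on a log axis for S100a8, S100a9 and S100a7a in each of 6 mice per group; triangles are growing-hair libraries, open circles resting-hair libraries and lines group medians. WT 1 stands alone in S100a8 (336) and S100a9 (1072), while S100a7a splits by hair state in all 3 groups.

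The alarmins were among the genes in which WT 1 stood farthest above the other libraries. WT 1 was the highest library for 1004 of 17667 genes tested (5.68%), near the equal share of 1 in 18 libraries. It was also the highest for 3 of the 10 S100 genes, namely S100a8, S100a9 and S100a10. Among the tested genes it stood more than 5-fold above all other libraries for 9 (0.0509%), in which S100a9 ranked 2 and S100a8 ranked 6. The filter on low counts removes genes high in WT 1 alone: over all genes with at least 10 normalized counts in WT 1, and with other libraries set at least to the level of 3 reads, there were 30 such genes, and S100a9 ranked 3 and S100a8 ranked 21. Among the other tested ones were Ankrd1 and Ankrd2, which encode ankyrin repeat proteins of striated muscle, the lubricin gene Prg4, Rrad, and Myog, a transcription factor of muscle differentiation. Ankrd1, the highest of these, held 805 normalized counts in WT 1 and at most 40.3 elsewhere.

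Of 12 neutrophil genes, 5 were highest in WT 1. The summed level of all 12 was 1633 normalized counts in WT 1, 371 to 810 in the other WT libraries, 313 to 856 in N-IKKa and 306 to 885 in C-IKKa. Most of that sum outside WT 1 was Il1r2, the decoy receptor gene of interleukin 1, with 598 in WT 1 and 228 to 796 elsewhere. The other 11 genes summed to 1035 in WT 1 and 31.3 to 167 elsewhere. The chemokine receptor gene Cxcr2 held 365 normalized counts in WT 1 against at most 81.7 elsewhere, and the receptor gene Csf3r 486 against at most 104. Retnlg and Mmp8, expressed in mature neutrophils, held 83.7 and 85.7 against at most 10.7 and 11.4, and Ly6g held 5.04 where all other libraries were listed at 0. The granule genes of immature neutrophils were near 0 in WT 1, with 2.02 for Mpo and 1.0 each for Elane, Camp and Ltf; Ngp held 5.04. Itgam was listed at 0 in all 18 libraries, but 68.7% of its exon bases are shared with an overlapping gene model on the same strand, so this 0 is not read as absence. Of 25 companion genes of alarmins in stressed epidermis, 15 were highest in WT 1, among them Krt6b (948 against at most 667), Cxcl5 (83.7 against at most 12.1) and Lcn2 (53.4 against at most 12.0). The part of neutrophils or of stressed keratinocytes in the S100a8 and S100a9 levels of WT 1 was not tested, and in bulk RNA more cells of a type and more RNA per cell cannot be told apart.

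**Figure D2:**
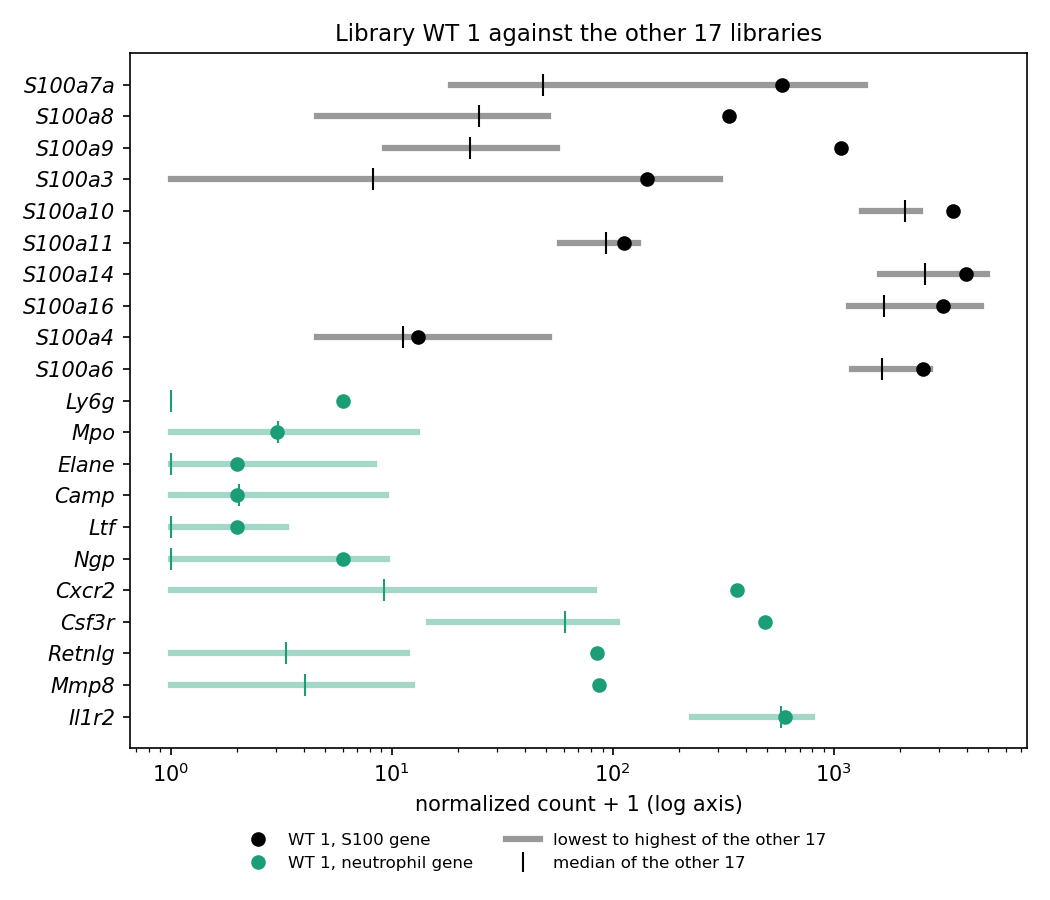
Normalized count + 1 on a log axis for the 10 S100 genes (black) and 11 neutrophil genes with reads (green); points are WT 1, bars run from the lowest to the highest of the other 17 libraries and ticks are their medians. WT 1 lies outside the bar for S100a8, S100a9 and S100a10 and for Ly6g, Cxcr2, Csf3r, Retnlg and Mmp8.

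S100a10 was the third gene that peaked in WT 1, by a smaller step. It held 3465 normalized counts there and 1345 to 2460 in the other 17 libraries, 1.41-fold above the next. S100a7a and S100a3 did not peak in WT 1, where they ranked 4 and 5 of 18.

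The hair gene and the third alarmin followed the hair state of the library. S100a3 held 142 and 299 normalized counts in the growing-hair libraries WT 1 and 4, 304, 153 and 184 in N-IKKa 8, 9 and 11, and 108 in C-IKKa 14. In the 12 resting-hair libraries it ran from 0 (WT 6, where up to 3 reads or 3.61 normalized counts are allowed) to 10.5, with a median of 3.22. The 2 sets did not overlap, and the ratio of their medians was 52.3. S100a7a held 584 and 1387 in WT 1 and 4, 882, 329 and 842 in N-IKKa 8, 9 and 11, and 299 in C-IKKa 14, against 17.6 to 58.0 in the resting-hair libraries. Again no resting library reached a growing one, with a ratio of medians of 19.8. The highest resting values of both genes were those of C-IKKa 18, with WT 2 near it for S100a3 (10.1). C-IKKa 18 also had the highest mean of the hair shaft list among resting-hair libraries (5.27), with 2152 normalized counts of Krt71. It was kept as a resting-hair library in all means and fits.

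S100a14 and S100a16 followed the same split by smaller steps, and the other members overlapped. S100a14, which encodes an epithelial S100 protein, ran from 2969 to 4913 normalized counts (median 4434) in growing-hair libraries and from 1623 to 2951 (median 2457) in resting ones. S100a16 ran from 2392 to 4617 (median 3795) and from 1165 to 1986 (median 1618). The ratios of medians were 1.80 and 2.34. S100a6, whose product calcyclin binds Cacybp, ran from 1643 to 2711 and from 1211 to 1839, so that N-IKKa 9 lay within the resting range. S100a10, S100a11, S100a4, S100a8 and S100a9 overlapped too, with ratios of medians of 0.877, 0.700, 0.712, 1.39 and 1.31. Without WT 1, S100a10 ran from 1345 to 2076 in growing-hair libraries, below the resting median of 2148. It still overlapped the resting range of 1608 to 2460. In all, 4 of the 10 genes were higher in every growing-hair library than in any resting one and 0 were lower, where 8.45% and 5.25% of all tested genes were. Without WT 1 the lowest growing-hair value of these 4 genes was the same, because C-IKKa 14 was the lowest of the 6 in each.

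All 6 growing-hair libraries were read as female, and the 4 resting female libraries are among the 12 resting ones. The separation among females alone therefore follows from the one above and is not a further check. The resting female range was 1.17 to 10.5 for S100a3, 24.2 to 58.0 for S100a7a, 1647 to 2578 for S100a14 and 1165 to 1677 for S100a16, below all growing values. These levels are a description, since hair state was read from the same libraries and no test was made.

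**Figure D3:**
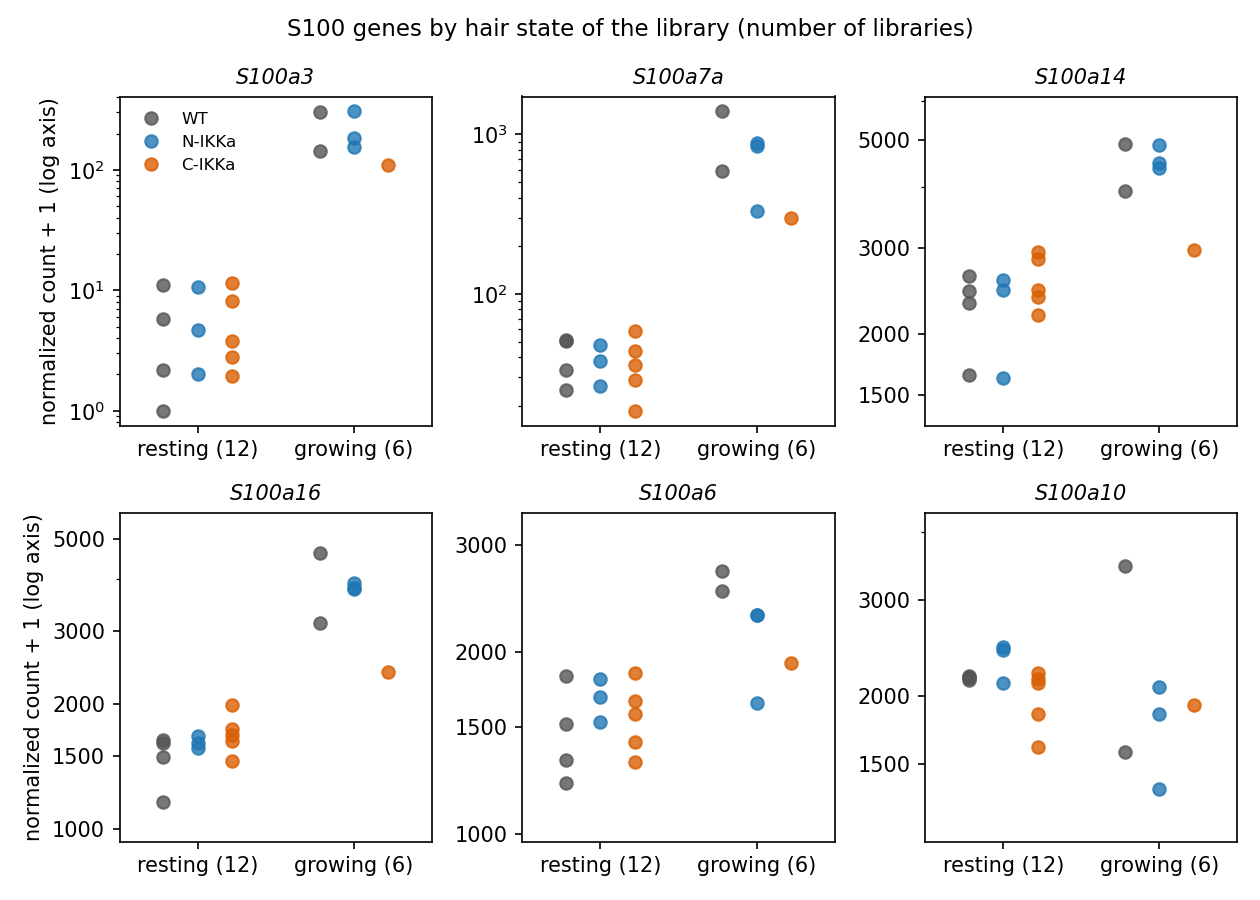
Normalized count + 1 on a log axis for 6 S100 genes in 12 resting-hair and 6 growing-hair libraries, each point 1 mouse, coloured by genotype. S100a3, S100a7a, S100a14 and S100a16 separate fully, S100a6 overlaps at N-IKKa 9 and S100a10 overlaps, with WT 1 highest.

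Of 12 partner genes, 4 were higher in every growing-hair library than in any resting one (Padi3, Padi1, Myh9 and Stip1), 7 overlapped and Anxa1 was listed at 0, where 8.45% of all tested genes were higher. Padi3, the deiminase gene known from human hair to act on S100a3, ran from 2250 to 9039 normalized counts in growing-hair libraries and from 0 to 152 in resting ones, and Padi1 from 472 to 3098 and from 0 to 33.3. Of the fused S100 genes, which carry an S100 domain before long repeats, Crnn (2798 to 19550 against 7.92 to 186) and Tchhl1 (1641 to 17059 against 4.40 to 190) were higher with growing hair, and Flg2, of the cornified layer, was lower (8872 to 15457 against 21104 to 35056). Hrnr, Rptn and Tchh were listed at 0 throughout; skin is known to use them, so these zeros are not read as absence. Among S100 genes outside the 10, S100a1 ran from 340 to 607 with growing hair and from 224 to 336 with resting hair. S100a5, the neighbour of S100a3, reached 30.8 with growing hair and 1.03 with resting hair, but was at 0 in some libraries of both kinds.

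The growing-hair libraries were 2 WT, 3 N-IKKa and 1 C-IKKa, so the genotype averages of S100a7a and S100a3 mix the 2 hair states in unequal shares. The parts of hair state, sex and genotype in these averages were not tested. Mean normalized counts of S100a7a were 355 ± 551 in the WT group, 360 ± 405 for N-IKKa and 80.0 ± 108 for C-IKKa (SD, n = 6 each). In resting-hair libraries alone it was 39.2 ± 13.0 (SD, n = 4), 36.5 ± 10.8 (n = 3) and 36.3 ± 15.3 (n = 5). The S100a3 means were 76.2 ± 122, 109 ± 125 and 21.8 ± 42.2 in that order, and 4.0 ± 4.53, 4.80 ± 4.43 and 4.63 ± 4.06 in resting-hair libraries. The resting means of each gene differed between genotypes by less than their SD. Without the growing-hair libraries the S100a3 log2 fold changes had confidence limits (limma) of -1.45 to 2.33 in N-IKKa against WT. They were -1.26 to 2.06 in C-IKKa against WT and -1.76 to 1.85 between N-IKKa and C-IKKa. For S100a7a the limits were -0.93 to 0.77, -0.90 to 0.59 and -0.74 to 0.88, in the same order. These limits leave room for differences between genotypes in resting hair, in either direction.

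No S100 gene was called in any genotype comparison. The call rule was a limma adjusted p below 0.05 over all genes tested, which called 0.00566% of genes in N-IKKa against WT, 0.345% for C-IKKa against WT and 0.43% between N-IKKa and C-IKKa. By that rule 0 of 10 members passed each time. Without WT 1 it called 0.00566%, 0.34% and 0.419% of genes and without the growing-hair libraries 0.0113%, 0.923% and 0.289%, and again 0 members in each. At an unadjusted p below 0.05, limma passed 0 members in each comparison, where 4.14%, 5.73% and 11.7% of all genes passed. edgeR and DESeq2 also called 0. At an unadjusted p below 0.05 edgeR passed 2, 2 and 0 members, where 899, 1077 and 2223 of 17667 genes passed. Those edgeR members were S100a8 and S100a9 in both comparisons with WT, which WT 1 enters. DESeq2, which gave no p for S100a9, passed 1, 2 and 1 members, where 1070, 1269 and 2661 genes passed. For no member were the libraries of 2 genotypes free of overlap, as they were for 0.125%, 0.985% and 1.05% of genes.

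The hair gene and S100a7a had the widest limits. S100a3 gave log2 fold changes of 1.20 (SE 1.53, 95% limits -2.02 to 4.43) in N-IKKa against WT, -0.81 (-4.03 to 2.41) for C-IKKa against WT and 2.01 (-1.21 to 5.23) between N-IKKa and C-IKKa. S100a7a gave 0.46 (SE 1.11, -1.88 to 2.79), -1.15 (-3.48 to 1.18) and 1.61 (-0.73 to 3.94). These limits leave room for differences of several fold in either direction. Single libraries moved the values: S100a3 in N-IKKa against WT was 0.45 without WT 6 and 2.10 without WT 4, and S100a7a in C-IKKa against WT was -0.42 without WT 4. For S100a3 in C-IKKa against WT, leaving out WT 4 gave 0.09. S100a7a shares stretches of at most 175 bases, at 90% identity or more, with 414 other gene models, and S100a3 shares 146 bases with an overlapping one, so part of their counts is uncertain. Without the 6 growing-hair libraries S100a7a gave -0.08, -0.15 and 0.07, and S100a3 gave 0.44, 0.40 and 0.04. With the hair shaft covariate over all 18 libraries S100a7a gave -0.15, -0.64 and 0.49, and S100a3 gave 0.42, -0.15 and 0.58. The -0.64 of S100a7a in C-IKKa against WT had 95% limits of -1.18 to -0.09 (limma unadjusted p = 0.0238, adjusted p = 0.419).

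Among the epidermal genes S100a10 had the narrowest limits. S100a10, the partner of annexin A2, averaged 2276 ± 628 in the WT group, 2043 ± 411 for N-IKKa and 1971 ± 224 for C-IKKa (normalized counts, SD, n = 6 each). Its log2 fold changes were -0.14 (SE 0.16, 95% limits -0.49 to 0.20) in N-IKKa against WT, -0.18 (-0.52 to 0.17) for C-IKKa against WT and 0.03 (-0.31 to 0.38) between N-IKKa and C-IKKa. These 95% limits of S100a10, all under 1.5-fold, are those of the fit over all 18 libraries. S100a14 gave 0.18 (-0.39 to 0.74), -0.09 (-0.66 to 0.47) and 0.27 (-0.30 to 0.84). S100a16 gave 0.31 (-0.37 to 0.99), -0.17 (-0.84 to 0.51) and 0.47 (-0.20 to 1.15). Between N-IKKa and C-IKKa, S100a14 and S100a16 turned to -0.23 and -0.06 without the growing-hair libraries. In the same fit and comparison S100a10 gave 0.24 (95% limits 0.03 to 0.45, limma unadjusted p = 0.0306, adjusted p = 0.645).

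S100a11, a partner of annexin A1 in the cornified envelope, had its lowest median in N-IKKa. It ran from 57.2 to 118 normalized counts in WT (median 110), from 56.8 to 102 in N-IKKa (median 73.4) and from 71.3 to 129 in C-IKKa (median 99.1), and the groups overlapped. Its log2 fold change was -0.40 (SE 0.21, 95% limits -0.85 to 0.04, adjusted p = 0.880) in N-IKKa against WT, -0.00 (-0.44 to 0.44) for C-IKKa against WT and -0.40 (-0.85 to 0.04, adjusted p = 0.446) between N-IKKa and C-IKKa. Without the growing-hair libraries the N-IKKa values were -0.06 against WT and -0.16 against C-IKKa. Its transcripts are near-identical to those of 5 other gene models, S100a11-ps among them, so its counts are uncertain.

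The broadly expressed genes overlapped between genotypes as well. S100a6 averaged 1850 ± 630 in the WT group, 1874 ± 339 for N-IKKa and 1619 ± 233 for C-IKKa (normalized counts, SD, n = 6 each), with log2 fold changes of 0.07 (SE 0.18, 95% limits -0.32 to 0.45), -0.14 (-0.52 to 0.25) and 0.21 (-0.18 to 0.59). S100a4, known from fibroblasts and myeloid cells and as a binder of the nonmuscle myosin Myh9, was low, from 3.61 to 20.2 in WT, 4.10 to 50.8 in N-IKKa and 5.71 to 15.6 in C-IKKa. The highest values were those of N-IKKa 7 (50.8) and N-IKKa 10 (29.9). Its log2 fold changes were 0.60 (-0.45 to 1.65), 0.33 (-0.72 to 1.38) and 0.27 (-0.78 to 1.32). An overlapping gene model on the same strand shares 51.7% of the exon bases of S100a4, so its level is uncertain.

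**Figure D4:**
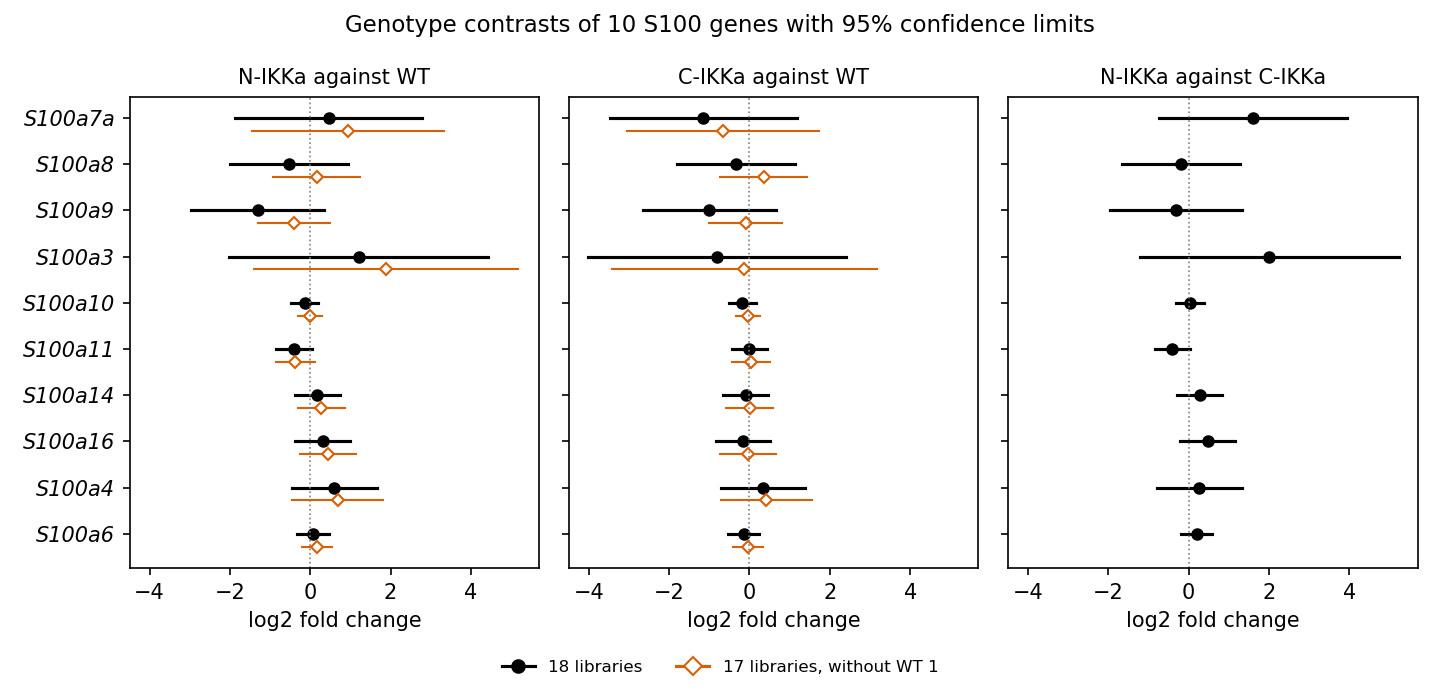
Log2 fold changes of the 10 S100 genes with 95% confidence limits in the 3 genotype comparisons; black circles use 18 libraries and orange diamonds leave out WT 1. Every black interval spans 0, and S100a8 changes sign without WT 1 in both comparisons with WT.

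Per kilobase of annotated exon, the 4 most abundant members by median over the 18 libraries were S100a10 (1751 normalized counts per kilobase), S100a14 (1508), S100a6 (1222) and S100a16 (1041). S100a11 followed at 188, and the remaining 5 were below 50, with S100a3 the lowest at 1.49. All annotated exons of S100a3 cover 5660 bases, against 511 to 1727 for the other members, which lowers its value per kilobase. In growing-hair libraries S100a14 (2567) and S100a16 (2347) passed S100a6 (1680) and S100a10 (1554), and S100a7a (518) passed S100a11 (144).

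Receptors, partners and companions of the S100 proteins were compared next, from lists of genes with these known roles, drawn up with earlier results of these data known. Of 8 S100 receptor genes, 0 were called in any comparison, with median log2 fold changes of -0.30, 0.02 and -0.21 in the 3 comparisons, in the same order. The medians over all genes were 0.01, 0.00 and 0.01. Tlr4 gave -0.47 (SE 0.27), -0.30 and -0.17, and Ager 0.34 (SE 0.36), -0.15 and 0.50. The smallest adjusted p among receptors was that of Cd69, a lymphocyte activation gene, in N-IKKa against C-IKKa (log2 fold change -1.46, SE 0.49, adjusted p = 0.327). Of 11 partner genes tested, 0 were called, with medians of -0.09, -0.06 and -0.03. Anxa2 gave -0.24 (SE 0.18), 0.04 and -0.28, Anxa11 gave -0.28 (SE 0.12), -0.04 and -0.25, and Padi3 gave 2.24 (SE 2.48), -0.33 and 2.57. Anxa1 was listed at 0 in all libraries, although keratinocytes are known to express it, and this 0 is not read as absence. Of 4 fused S100 genes tested, 0 were called; Flg, the profilaggrin gene, gave 0.05, -0.52 (SE 0.25, adjusted p = 0.874) and 0.57 (adjusted p = 0.418). Of 3 other S100 genes tested, 0 were called, with S100a1 at 0.14, -0.07 and 0.21, S100a13 at -0.04, 0.11 and -0.15, and S100a7l2, a relative of S100a7a, at -1.38 (SE 1.78), -0.53 and -0.85. S100a7l2 was called under 1 alternative added after the data were seen, resting-hair libraries with a sex covariate, in C-IKKa against WT (-3.18, SE 0.71, limma adjusted p = 0.0465); with the sex covariate over all 18 libraries it gave -2.56 (adjusted p = 0.200).

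Of 12 companion genes tested, 1 was called in 1 comparison. Krt16, a keratin of stressed epidermis, was lower in N-IKKa (68.3 to 255 normalized counts) than in C-IKKa (642 to 1445), with a log2 fold change of -2.69 (SE 0.54, adjusted p = 0.0306). This call was lost when any of 8 libraries was left out (N-IKKa 7, 9 or 12, or C-IKKa 13, 15, 16, 17 or 18). With each of the 18 left out in turn, the largest limma adjusted p was 0.0980 and the log2 fold change ran from -2.87 to -2.49. Of 13 other settings 1 lost the call, edgeR (adjusted p = 0.107). DESeq2 gave an adjusted p of 0.00124. The limma adjusted p was 0.00179 with the hair shaft covariate and 0.000233 without the growing-hair libraries. Against WT, Krt16 gave 2.19 (SE 0.54, adjusted p = 0.138) in C-IKKa with all libraries, and WT 1 held 1351 normalized counts. In that comparison limma called it without WT 1 (2.74, adjusted p = 0.00269), without the growing-hair libraries (3.16, adjusted p = 6.655e-05), with the hair shaft covariate (2.32, adjusted p = 0.0142) and with array weights (2.76, adjusted p = 0.000355), and did not with the sex covariate (2.36, adjusted p = 0.110); edgeR gave an adjusted p of 0.751 and DESeq2 0.416. Stfa3, a stefin A gene, gave 2.55 (SE 0.63, adjusted p = 0.138) for C-IKKa against WT and -2.43 (adjusted p = 0.139) between N-IKKa and C-IKKa, and Cxcl1 gave -2.46 (adjusted p = 0.267) in the latter. In the same comparison the alarmins S100a8, S100a9 and S100a7a gave -0.20, -0.31 and 1.61. Of 3 neutrophil genes tested, 0 were called, with medians of -0.51, -0.07 and -0.29.

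Gene patterns most like those of the members were ranked by Spearman's rho across libraries, as a description without a p, since libraries share hair state and depth. For S100a9 over 18 libraries the 5 highest, leaving out the members, numbered gene models and Rik clones, were Mcrip2 (rho 0.763, and 0.718 without WT 1), Pdcl3 (0.730 and 0.679), Mad2l1bp (0.726 and 0.689), Cdc42ep4 (0.684 and 0.647) and Cox7b (0.676 and 0.62). S100a8 ranked 9 among all tested genes (0.668 and 0.605). For S100a14 they were H2aj (0.946 and 0.936), Ubfd1 (0.946 and 0.939), Aars (0.942 and 0.931), Cnga1 (0.942 and 0.931) and Rpl27 (0.940 and 0.953), and S100a16 reached 0.860. For S100a3 over the 12 resting-hair libraries, where it held at most 10.5 normalized counts, they were Kcnc2 (0.874), Gng8 (0.853), Eef1e1 (0.853), Kirrel (0.846) and Elmo2 (0.846), with -0.66, 0.03, -0.09, 0.66 and 0.49 over the 6 growing-hair libraries. S100a14, S100a16 and S100a7a each gave 0.886 with S100a3 over those 6 libraries and 0.01, -0.13 and 0.07 over the 12.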

How the data were processed

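Back skin RNA of 18 mice was isolated (TRIzol, then RNeasy MinElute) and sequenced from a stranded mRNA kit on a NovaSeq instrument, per the labels' protocols. Reads were counted with featureCounts on GRCm39, per the submitters' processing notes; no source used here gives the aligner, annotation release, strand setting or scaling tool. The deposited signal is a normalized count per gene and library. Each value was a whole number of steps of the library (within 0.001 reads), so reads were recovered by division. A listed 0 allows up to 3 reads; such limits cover counting error only and do not cover reads lost to overlapping gene models.

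The members and gene lists were chosen with earlier results of these data known. Values were analysed as log2(normalized count + 1) with limma 3.58.1 in R 4.3.3 (empirical Bayes with a trend), 1 mean per group over all 18 libraries, two-sided, with Benjamini-Hochberg adjustment per comparison over 17667 genes. All 10 members were named; of other lists, up to 4 called genes, else the 2 with the smallest p, plus Anxa1, Anxa2, Padi3, Tlr4 and Ager. Other genes were named after their values were seen. Growing hair was a mean log2 level of the hair shaft list above 8, and a library was read as male above 500 normalized counts of Ddx3y. The model was tested on simulated data. Alternatives included edgeR 4.0.16 and DESeq2 1.42.0 on recovered reads. Overlapping exons were looked up in a GRCm38 annotation, so no GRCm39 coordinates are given. Labels do not say that mice shared litters or batches.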

Additional observations from a re-analysis of the deposited data

Results flagged for a closer look

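Of 30 groups of 6 libraries (10 genes in 3 genotypes), 2 held a library far from the other 5 by Dixon's test at the 95% level on log2(normalized count + 1), where chance gives about 1 group in 20. S100a9 in WT was highest in WT 1, at 1072.5 normalized counts, and the gap to the next library was 0.831 of the range of the group on that scale, above the critical value for 6 libraries. S100a11 in WT was lowest in WT 3, at 57.2 normalized counts, with a gap of 0.761 of the range; without WT 3 its log2 fold change was -0.56 in N-IKKa against WT and -0.16 in C-IKKa against WT. On normalized counts themselves the gaps were 0.983 and 0.692, and 4 more groups passed: S100a8 (0.86) and S100a10 (0.685) in WT with WT 1 highest, and S100a7a (0.856) and S100a3 (0.911) in C-IKKa with C-IKKa 14 highest.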

How the results depend on the processing

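No member was called under any of 31 alternatives in any comparison; the smallest adjusted p was 0.271 (S100a11, N-IKKa against C-IKKa). Of 921 member values, 860 kept their direction and 61 changed sign, in 17 of 30 results; the cause was not tested. No paired analysis was possible because replicate numbers are not shared between groups.

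Values that changed sign are log2 fold changes. In N-IKKa against WT, without the 6 growing-hair libraries S100a14 gave -0.033, S100a7a -0.080, S100a10 0.11 and S100a8 0.16; in these libraries with a sex covariate, added after the data were seen, -0.040, -0.073, 0.11 and 0.36. The hair shaft covariate gave S100a6 -0.0074 and S100a7a -0.15, and array weights S100a8 0.067. In C-IKKa against WT, without the growing-hair libraries S100a11 gave 0.10, S100a6 0.10, S100a14 0.20, S100a16 0.21, S100a3 0.40 and S100a8 0.71; with the sex covariate added, 0.10, 0.10, 0.18, 0.19, 0.83 and 1.06. The sex covariate alone gave S100a16 0.025, S100a14 0.053, S100a8 0.13 and S100a3 0.53, array weights gave S100a14 0.041, S100a16 0.042, S100a11 0.085 and S100a8 0.26, the hair shaft covariate gave S100a14 0.0080, and TMM scaling gave S100a11 0.00127. In N-IKKa against C-IKKa, without the growing-hair libraries S100a16 gave -0.064 and S100a14 -0.23; with the sex covariate added S100a16 gave -0.053, S100a3 -0.15 and S100a14 -0.22.

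With each library left out in turn, the ranges that crossed 0 were, in N-IKKa against WT, -0.054 to 1.19 for S100a7a, -1.08 to 0.16 for S100a8 and -0.040 to 0.19 for S100a6; in C-IKKa against WT, -0.89 to 0.35 for S100a8, -1.57 to 0.087 for S100a3, -0.16 to 0.090 for S100a11, -0.25 to 0.068 for S100a14 and -0.32 to 0.074 for S100a16; and in N-IKKa against C-IKKa, -0.33 to 0.081 for S100a8, -0.026 to 0.15 for S100a10 and -0.095 to 0.57 for S100a4.

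Genes called numbered 1, 61 and 76 in the 3 comparisons. In N-IKKa against WT the count was 2 with no filter, DESeq2, without the growing-hair libraries and there with a sex covariate, and 0 with a filter of 50 or the compared groups alone. In C-IKKa against WT it was 38 with a filter of 50, 148 with DESeq2, 160 with the hair shaft covariate, 163 without the growing-hair libraries, 176 with array weights and 205 with the sex covariate added there. In N-IKKa against C-IKKa it was 47, 188, 159 and 163 with a filter of 50, DESeq2, the hair shaft covariate and array weights. With each library left out it ranged from 1 to 2, 33 to 73 and 39 to 103, falling most without C-IKKa 13 or 16 against WT and without C-IKKa 17 against N-IKKa.

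Depth limits S100a3 in resting hair and S100a4, at up to about 10 and 51 normalized counts. Outside WT 1 it also limits S100a8 (3.57 to 50.2) and S100a9 (8.31 to 55.1). S100a8 in WT 3 lay at the level of 3 reads (3.57). Without WT 3 its log2 fold change was -1.08 in N-IKKa against WT and -0.89 in C-IKKa against WT. Resting WT, N-IKKa and C-IKKa libraries number 4, 3 and 5.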

Other observations

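S100a7l2, a relative of S100a7a that was tested but is not among the 10 genes, followed the sex read from Ddx3y. It ran from 5.15 to 383 normalized counts in 8 male libraries (median 90.6) and from 0 to 9.07 in 10 female ones (median 0). Among resting-hair libraries alone the range was 5.15 to 383 in males and 0 to 9.07 in 4 females, which overlap. S100a7l2 was singled out after its values were seen, and the sex difference was not tested. Among males it held 182 and 383 normalized counts in 2 WT libraries, 79.4 and 199 in 2 N-IKKa libraries and 5.15 to 102 in 4 C-IKKa libraries. S100a7a did not share this pattern, with 17.6 to 50.03 in resting males and 24.2 to 58.0 in resting females.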
